A study of Rattus norvegicus with 13 samples.

Results

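The genes described here are 10 genes of antigen processing and presentation by the major histocompatibility complex (MHC): B2m, Psmb8, Psmb9, Psmb10, Tap1, Tap2 and Tapbp of the class I route, and Cd74, RT1-Da and RT1-Ba of the class II route. They were taken by symbol, and all 10 were found, in 11 of the 17366 rows of the expression table, since Tap2 has 2 rows. Of the 11 rows, 9 had a mean of at least 0.5 FPKM (a level per transcript length, relative to the mapped fragments of each library) over all rats and were tested, and both Tap2 rows lay under that level.

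MHC class I molecules carry short peptides from inside the cell to its surface, where CD8+ T cells read them. The proteasome cuts proteins into peptides, and interferon-induced subunits (the immunoproteasome) can replace its constitutive catalytic subunits. The TAP transporter moves the peptides into the endoplasmic reticulum, tapasin loads them, and B2m, the class I light chain, holds the complex together. MHC class II molecules present peptides from endosomes to CD4+ T cells, and the invariant chain Cd74 fills their groove until a peptide is loaded. In the brain, class II is known from microglia, from macrophages at the vessels, meninges and choroid plexus, and from rare dendritic cells, whereas most cells can make class I. In the rat the MHC is called RT1, and its genes are among the most variable between strains and animals.

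The samples were whole hypothalami of 13 rats, measured by RNA sequencing, 7 fed standard chow (0.30% fructose) and 6 fed a high-fructose diet (55% fructose) from postnatal day 25. A fast began on day 79, glucose (2 g per kg) or saline was injected into the abdomen on day 80, and tissue was taken 1 h later. The rats were housed in pairs. The sources used here do not give which rat received glucose, which rats were cage mates, or their strain and sex, so p-values measure the spread between these rats alone. Rats are named by diet and a number in accession order, which pairs nothing.

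Total FPKM per rat ranged from 556902 to 608058, and the read depth is unknown. The tissue label was checked with 13 hypothalamic genes, all of them tested. Pmch, the melanin-concentrating hormone precursor, and Hcrt, the orexin precursor, stood at 1345 to 7136 and at 216.9 to 1012 FPKM, whereas Agrp, of arcuate neurons, was at 0 to 1.923 FPKM. Oxt and Avp, the oxytocin and vasopressin genes, varied widely between rats of the same diet. Oxt ranged from 8.971 to 1455 FPKM on chow and from 2.035 to 359.1 FPKM on fructose. Avp ranged from 5.079 to 601.2 and from 0.451 to 214.1 FPKM. Over all genes, 3.94% of 11837 rows changed with diet by limma at an adjusted p under 0.05, 1.66% higher on fructose and 2.27% lower. Markers of other tissue moved with diet as well. Of 9 tested markers of midbrain dopamine neurons 9 rose, of 7 tested rows of blood cells 4 rose, of 8 of meninges and fibroblasts 5 rose, and of 10 of the thalamus 5 fell and 1 rose. In bulk tissue more cells of a type and more RNA per cell cannot be told apart.

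The promoters of these genes are shown first because short sequences that help to switch on MHC genes are known. Class I genes often carry an interferon-stimulated response element, which IRF factors bind, and class II genes carry the X and Y boxes, which RFX and NF-Y bind. The boxes do not set class II apart, and Y box matches in class I genes are counted below. All 10 symbols matched a RefSeq promoter in the rat build GRCr8, a window from 250 bases before to 50 bases after the annotated start. In the stretches below, written 5′ to 3′ along the gene's strand, capitals mark matches to GAAANNGAA (the core of the response element), GGGNNTTTC (part of a core for NF-kB), AGCAACNGA (an X box core) or CCAAT (the Y box core), each searched on both strands. These letters were chosen with the sequences in view.

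B2m, chr3:129549155-129549214, plus strand: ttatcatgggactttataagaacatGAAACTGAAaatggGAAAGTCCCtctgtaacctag
Psmb10, chr19:50743331-50743390, minus strand: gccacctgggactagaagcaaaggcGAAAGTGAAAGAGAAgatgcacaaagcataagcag
Tap1, chr20:4668629-4668688, minus strand: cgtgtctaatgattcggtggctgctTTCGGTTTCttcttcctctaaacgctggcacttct
Tap2, chr20:4652303-4652362, minus strand: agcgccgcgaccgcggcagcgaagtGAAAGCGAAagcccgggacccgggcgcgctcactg
Tapbp, chr20:4967880-4967909, minus strand: ttgaggGAAAATGAAAGTGAAaggaaacag

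The class I stretches each hold the response element core, which in B2m began 150 bases before the start, next to an NF-kB core, and in Tap2 41 bases before it. Psmb10 and Tapbp each hold 2 matches that overlap. Of the 7 class I genes, 6 had a match in the whole window, all but Psmb9, against 9.71% of all 33469 promoters. None of the 3 class II genes had one. The match in Psmb8, which is not shown, began 3 bases before the start. As the letters were chosen with these sequences in view, the shares of all promoters do not test a difference. The NF-kB letters were found in 4 class I genes and in Cd74, against 4.53% of all promoters.

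RT1-Da, chr20:4515321-4515380, plus strand: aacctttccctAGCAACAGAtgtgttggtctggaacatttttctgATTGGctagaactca
RT1-Ba, chr20:4576969-4577028, plus strand: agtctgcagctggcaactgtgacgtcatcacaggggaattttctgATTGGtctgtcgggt
RT1-Bb, chr20:4604165-4604224, minus strand: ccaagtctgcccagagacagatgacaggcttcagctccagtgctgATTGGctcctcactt
RT1-Db1, chr20:4560228-4560287, minus strand: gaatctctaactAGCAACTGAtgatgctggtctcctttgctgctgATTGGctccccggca

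These are the promoters of the class II alpha chains RT1-Da and RT1-Ba and of their beta chain partners RT1-Bb and RT1-Db1. The stretches are aligned on the Y box, read here as ATTGG on the reverse strand. The X box core matched in RT1-Da and RT1-Db1, and in 446 of all 33469 promoters (1.33%). CCAAT was found in 3 of 3 class II and 3 of 7 class I genes, but also in 37.5% of all promoters. Such matches describe the letters in these windows alone.

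The comparison asked whether rats raised on fructose differed from rats raised on chow in these genes. Of the 9 rows tested, 3 rose on fructose (B2m, Cd74 and RT1-Da), none fell, and 6 did not pass, beside 1.66% of all tested rows called higher. The fold change was above 0 in 9 of 9 rows, against 50.3% of all rows, with a median of 0.33 on the log2(FPKM + 0.5) scale against 0.00085 over all rows. At an unadjusted p under 0.05 there were 6 of 9, all higher on fructose, where 19.2% of all rows stood in either direction and 8.59% in that direction. Fold changes on this scale understate the change of low genes such as RT1-Da and RT1-Ba. The calls for the members were known from earlier work on these data, so these counts are a description.

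**Figure D1:**
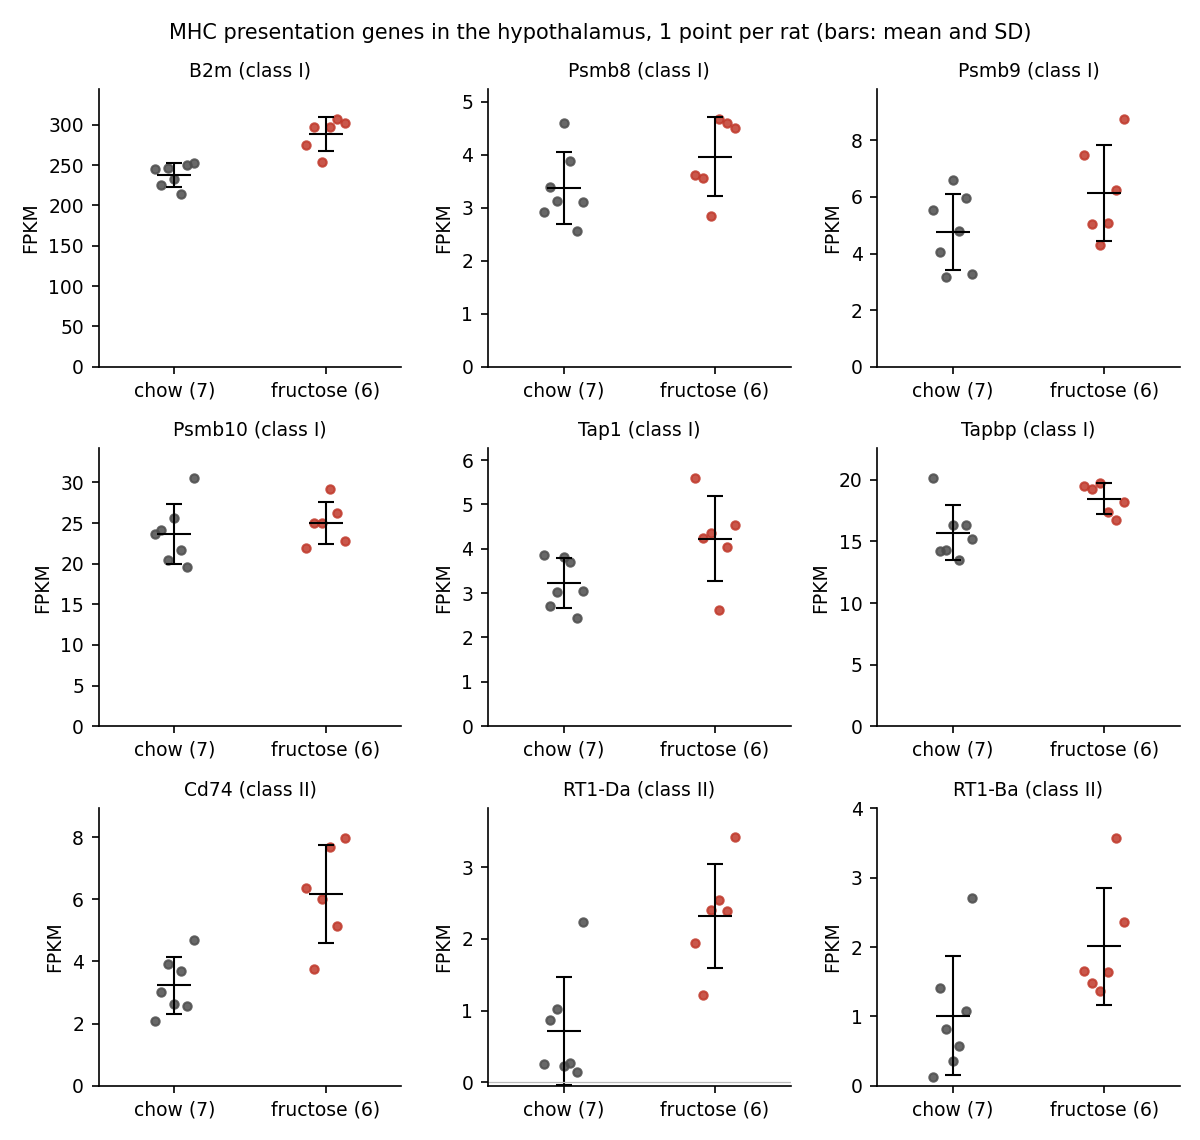
FPKM of the 9 tested genes in each rat (1 point per rat, 7 chow and 6 fructose, each axis showing 0; horizontal bars are means and vertical bars SD). The diets are apart in B2m alone, where the lowest fructose rat (253.3 FPKM) lies just above the highest chow rat (253.2 FPKM).

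B2m was by far the most abundant of these genes per length. It stood at 214.1 (lowest), 244.6 (median) and 253.2 FPKM (highest) in the 7 chow rats, and at 253.3, 297.3 and 307.5 FPKM in the 6 fructose rats. The lowest fructose rat exceeded the highest chow rat, which held for 0.879% of all rows tested, but the gap between the nearest rats was narrow. The rise was 0.28 ± 0.06 (SE) on the log2 scale, or 1.21-fold (limma adjusted p = 0.0213, exact permutation p = 0.000583, the lowest value that 1716 splits can give). The call ended when chow replicate 2 or either of fructose replicates 4 and 6 was left out, with an adjusted p of up to 0.0569 (limma).

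The immunoproteasome subunits Psmb8, Psmb9 and Psmb10 did not pass. Psmb8 stood at 2.565, 3.12 and 4.591 FPKM (lowest, median and highest) on chow and at 2.837, 4.054 and 4.679 FPKM on fructose (log2 difference 0.21, 95% interval -0.07 to 0.49, limma adjusted p = 0.428). Psmb9 stood at 3.156, 4.803 and 6.601 FPKM on chow and at 4.284, 5.656 and 8.764 FPKM on fructose (0.34, -0.05 to 0.73, adjusted p = 0.339). For both genes the diets overlapped widely, and 2 of 6 fructose rats lay above all chow rats. Psmb10 was the most abundant of the trio, at 19.55, 23.62 and 30.52 FPKM on chow and 21.97, 25.01 and 29.2 FPKM on fructose, and its difference of 0.09 (-0.11 to 0.29, limma adjusted p = 0.680) was the smallest among the tested rows. None of the 3 intervals excludes a rise as large as that of B2m.

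Each immune subunit was set against the constitutive subunit whose place it takes. On chow, Psmb8 stood at 1.72% ± 0.339 (SD, n = 7) of Psmb5, Psmb9 at 2.28% ± 0.578 of Psmb6, and Psmb10 at 10.1% ± 1.56 of Psmb7, per length. On fructose these were 1.97% ± 0.383 (SD, n = 6), 2.80% ± 0.905 and 10.9% ± 1.11. In both diets the constitutive subunits were far more abundant. The log2 ratio differed between diets by 0.17 for Psmb8, 0.25 for Psmb9 and 0.11 for Psmb10, none beyond the spread between rats (exact two-sided permutation p = 0.269, 0.271 and 0.305, adjusted p = 0.305 for each over 4 ratios, the fourth being that of Cd74 to B2m). Psmb5, Psmb6 and Psmb7 themselves had log2 differences of 0.04, 0.09 and -0.03 and did not pass.

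Tap1, a subunit of the peptide transporter, stood at 2.43, 3.045 and 3.866 FPKM (lowest, median and highest) on chow and at 2.626, 4.297 and 5.592 FPKM on fructose. Fructose replicate 4 was low at 2.626 FPKM, and the other 5 fructose rats lay above all chow rats. The difference of 0.33 ± 0.14 (SE) did not pass (limma adjusted p = 0.218, exact permutation p = 0.0519). Without fructose replicate 4 it was 0.44 (limma adjusted p = 0.0903, the lowest of the 13 fits with 1 rat left out, which reached 0.357). Tapbp, tapasin, stood at 13.51, 15.18 and 20.13 FPKM on chow and at 16.71, 18.71 and 19.74 FPKM on fructose. Chow replicate 1 was the highest rat of all, and the other 6 chow rats lay below all fructose rats. Tapbp did not pass in all rats (0.23 ± 0.08, limma adjusted p = 0.127), and passed without chow replicate 1 (0.29, limma adjusted p = 0.0155) and with array weights (0.28, limma adjusted p = 0.0330). It did not pass in the other 12 of 13 fits with 1 rat left out (limma adjusted p up to 0.237).

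Tap2, the other subunit of the transporter, was nearly unmeasured. Its 2 rows carry locus suffixes and reached 0.1645 and 0.4177 FPKM in the highest rat, and were listed at 0 in 6 and 5 of the 13 rats. Rows of this kind are low throughout the table. Of 940 rows with a locus suffix, 69.7% were listed at 0 in all rats and 6.81% reached a mean of 0.5 FPKM, against 14% and 71.7% of the 16426 other rows. How reads were given to genes with several rows, or whether some were dropped, is not stated in the sources, so these values do not show that Tap2 was low in the tissue. Neither row was tested.

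The class II genes were low but had the largest differences among the members. Cd74 stood at 2.08, 3.011 and 4.695 FPKM (lowest, median and highest) on chow and at 3.769, 6.18 and 7.976 FPKM on fructose. Of 6 fructose rats, 5 lay above all chow rats, and fructose replicate 2 (3.769 FPKM) lay among the chow rats. The rise was 0.84 ± 0.18 (SE), or 1.79-fold (limma adjusted p = 0.0276, exact permutation p = 0.00350).

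RT1-Da, the alpha chain of the class II molecule RT1-D, stood at 0.1434, 0.2665 and 2.229 FPKM on chow and at 1.217, 2.395 and 3.414 FPKM on fructose. Chow replicate 7 was apart at 2.229 FPKM, while the other 6 chow rats, at no more than 1.016 FPKM, lay below all fructose rats. The rise was 1.36 ± 0.31 (SE), or 2.57-fold, in 6 of 6 fructose rats against the chow mean (limma adjusted p = 0.0314, exact permutation p = 0.00408). With pseudocounts of 0.1 and 1 it was 1.97 and 1.02. Without chow replicate 7 it was 1.59 (limma adjusted p = 0.00828).

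RT1-Ba, the alpha chain of RT1-B, stood at 0.1261, 0.821 and 2.703 FPKM on chow and at 1.369, 1.645 and 3.577 FPKM on fructose. Chow replicate 7 again was the highest chow rat, above 5 of the 6 fructose rats. The difference of 0.86 ± 0.32 (SE) did not pass (limma adjusted p = 0.146, exact permutation p = 0.0356). Without chow replicate 7 it was 1.07 (limma adjusted p = 0.0621, the lowest of the 13 fits with 1 rat left out, which reached 0.252).

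Both class II calls were lost in some fits with 1 rat left out. Over the 13 such fits the log2 difference ran from 0.753 to 0.956 for Cd74 and from 1.24 to 1.59 for RT1-Da. The call for Cd74 ended when chow replicate 2 or 4, or fructose replicate 4 or 6, was left out, and that for RT1-Da without any of these or chow replicate 5, with adjusted p values of up to 0.0703 and 0.0785 (limma). Of the 9 tested members, 0 passed when chow replicate 2, fructose replicate 4 or, in turn, fructose replicate 6 was left out, with 5, 6 and 5 at an unadjusted p under 0.05 by limma. Of all 11837 tested rows, 84, 83 and 113 passed in these fits, against 466 with all rats. Without chow replicate 4, 1 member passed, beside 102 of all rows. All 9 fold changes stayed above 0 in each of the 13 fits with 1 rat left out. By the exact permutation test, adjusted over all genes, 0 members and 0 of all 11837 rows passed, with 5 members at an unadjusted p under 0.05.

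**Figure D2:**
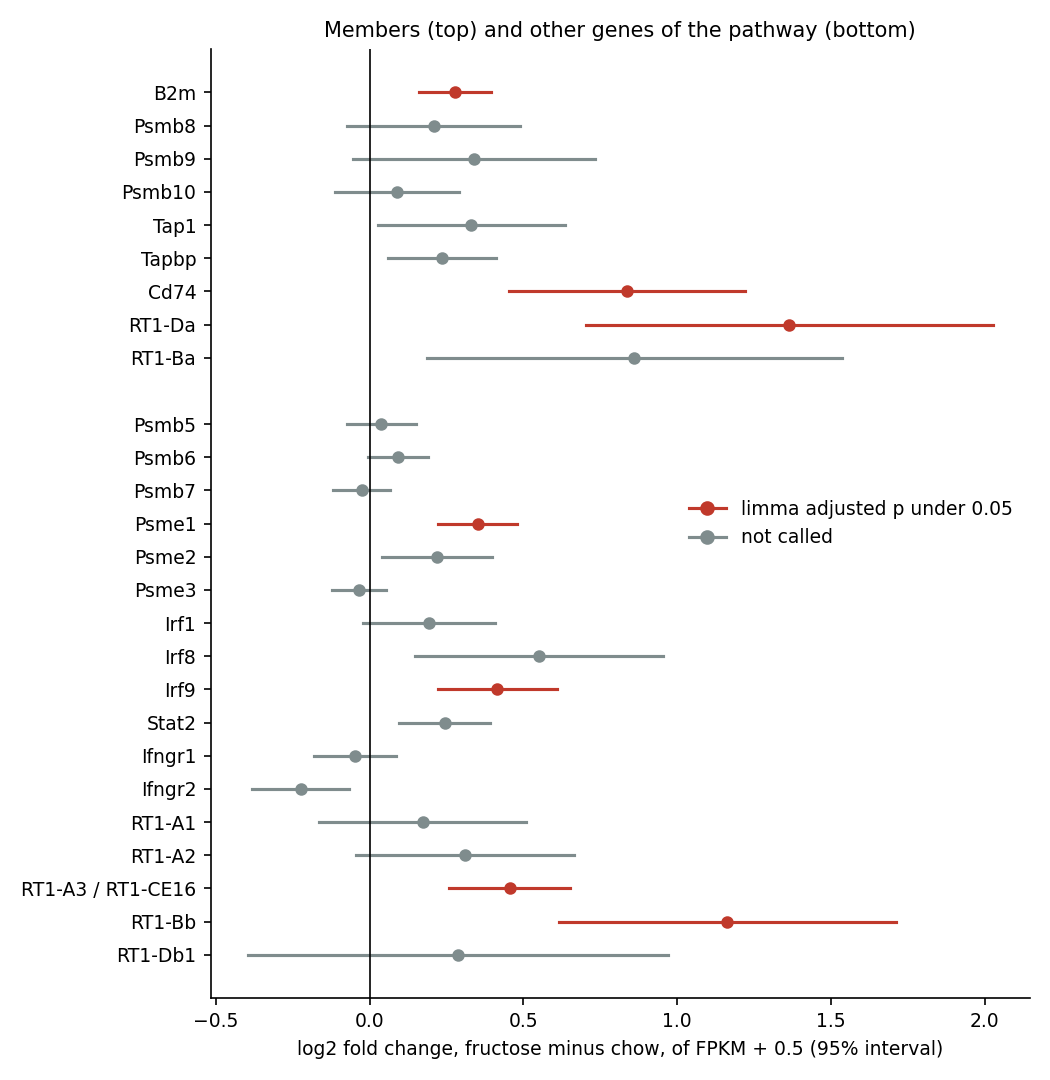
Log2 fold change on the FPKM + 0.5 scale, fructose minus chow, with 95% intervals from limma, for the 9 tested members (top) and 17 other genes of the pathway (bottom); red marks an adjusted p under 0.05. Cd74, RT1-Da, RT1-Ba and RT1-Bb lie farthest to the right, and the constitutive subunits Psmb5, Psmb6 and Psmb7 lie near 0.

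In order of mean FPKM on chow the members stood as B2m (237.9), Psmb10 (23.65), Tapbp (15.71), Psmb9 (4.768), Psmb8 (3.367), Tap1 (3.23), Cd74 (3.226), RT1-Ba (1.01) and RT1-Da (0.7144), with Tap2 given no place because its rows may not show its level. B2m lay above the rest in every rat. Psmb10 and Tapbp overlapped in their chow ranges, as did Psmb9, Psmb8, Tap1 and Cd74 among each other. RT1-Ba overlapped with Psmb8, Tap1, Cd74 and RT1-Da, and RT1-Da also with Cd74. On fructose Cd74 (6.152 FPKM) and Psmb9 (6.151 FPKM) had nearly the same mean, and Psmb8 (3.965) and Tap1 (4.231) lay lower.

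Class I and class II levels were compared within each rat as the mean of log2(FPKM + 0.5) over their rows, 8 for class I, the 2 low Tap2 rows included, and 3 for class II. For class I the 7 chow rats averaged 2.63 ± 0.10 (SD) and the 6 fructose rats 2.80 ± 0.11 (SD), a difference of 0.17. For class II they averaged 0.79 ± 0.58 and 1.81 ± 0.31, a difference of 1.02. Class I exceeded class II in every rat, by 0.79 to 2.61 on chow and by 0.76 to 1.46 on fructose. For each level, 3 of 6 fructose rats lay above all chow rats and 6 of 6 above the chow mean. Over the tested class I rows alone, a choice made after seeing the data, the levels were 3.78 ± 0.13 and 4.02 ± 0.10, with 4 of 6 fructose rats above all chow rats. These levels carry no test, because the members were chosen with results known.

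**Figure D3:**
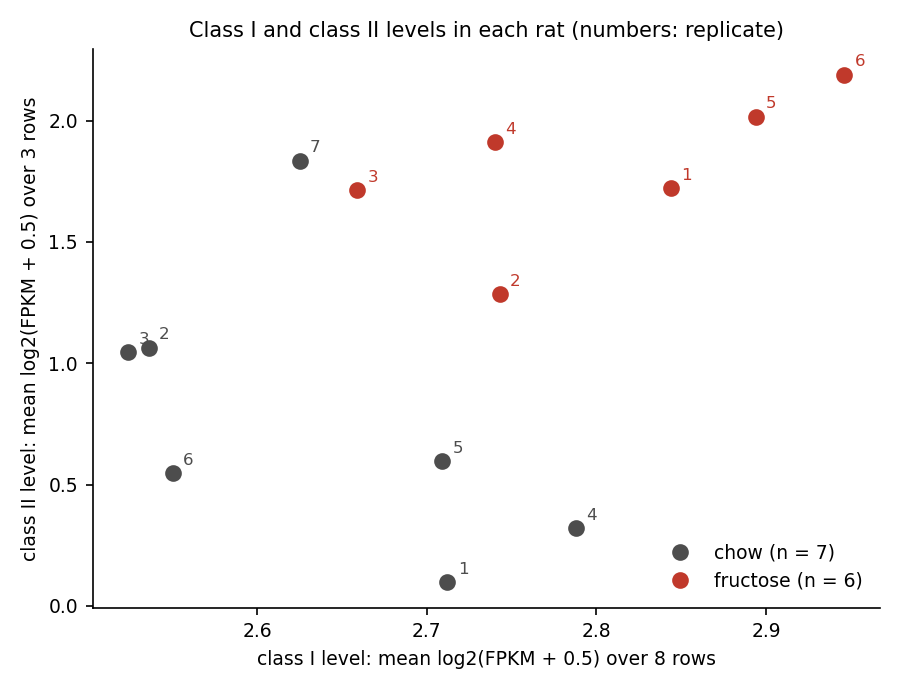
Class II level against class I level in each rat (mean log2(FPKM + 0.5) over 3 and 8 rows, numbers are replicates). Chow rats spread from 0.10 to 1.83 in class II level, with chow replicate 7 among the fructose rats, which lie between 1.28 and 2.19.

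Within chow the levels did not run in parallel. Chow replicates 1 and 4 had a low class II level (0.10 and 0.32) and the highest class I levels of their group (2.71 and 2.79), and chow replicate 7 had the highest class II level (1.83) with a class I level of 2.63. Fructose replicate 6 was the highest rat in both (2.95 and 2.19). The ratio of Cd74 to B2m is given as a description of these genes alone, with no p, since both were chosen with their rise known and neither stands for its class. In percent of B2m, Cd74 averaged 1.36% ± 0.377 (SD) in the 7 chow rats and 2.14% ± 0.550 (SD) in the 6 fructose rats. The log2 ratio was higher on fructose by 0.56, above all chow rats in 4 of 6 fructose rats. Whether class II rose more than class I was not tested.

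Of the other genes of the pathway, taken from lists written for this comparison and from all other rows named RT1, 4 of 66 tested rows rose and none fell, beside 1.66% and 2.27% of all tested rows, with a median log2 fold change of 0.04. For single lists, 1 row among 9 or 15 is too few to read against that background. Psme1, the alpha subunit of the interferon-induced proteasome activator PA28, stood at 64, 72.71 and 78.57 FPKM (lowest, median and highest) on chow and at 84.97, 91.74 and 104.9 FPKM on fructose. The diets did not overlap, and the rise of 0.35 ± 0.06 (SE, limma adjusted p = 0.00971) was called in all 13 fits with 1 rat left out. Its partner Psme2 had a difference of 0.22 ± 0.08 and did not pass (limma adjusted p = 0.163). Psme3, which forms a separate nuclear activator, had -0.03 ± 0.04. None of the 14 constitutive proteasome subunits passed by limma, with 1 at an unadjusted p under 0.05 and differences between -0.09 and 0.10.

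Among the heavy chains, 1 of 15 tested class I rows rose. This row joins RT1-A3 and RT1-CE16 and stood at 20, 27.7 and 31.86 FPKM on chow and at 32.6, 37.97 and 41.27 FPKM on fructose, with no overlap (0.46 ± 0.09 SE, limma adjusted p = 0.0240). The classical class I genes RT1-A1 and RT1-A2 had differences of 0.17 ± 0.16 and 0.31 ± 0.17 and did not pass (limma adjusted p = 0.617 and 0.335). In both, 4 of 6 fructose rats lay above all chow rats and fructose replicate 4 was the lowest rat of all. Over the 15 heavy chain rows the fold change was above 0 in 13, against 50.3% of all rows, with a median of 0.31. At an unadjusted p under 0.05 by limma there were 4 of the 15, where 19.2% of all rows stood. RT1 heavy chain genes are close copies that can share reads, so the split between them is uncertain.

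Of the class II rows other than members, RT1-Bb and RT1-Db1 were tested, and RT1-Bb, the beta chain that pairs with RT1-Ba, rose. It was listed at 0 in 2 chow rats and reached 0.7015 FPKM in the highest, and it stood at 0.8051, 1.333 and 2.309 FPKM on fructose (1.16 ± 0.26 SE, limma adjusted p = 0.0296). Its diets did not overlap. RT1-Db1, the partner of RT1-Da, averaged 2.34 ± 1.17 FPKM (SD) on chow and 2.90 ± 1.26 FPKM on fructose and did not pass (0.29 ± 0.32 SE, limma adjusted p = 0.697). The peptide exchange genes RT1-DMa and RT1-DMb, with 2 rows each, had group means of at most 0.1201 FPKM and were not tested, and as for Tap2 such rows may not show the level of the gene. Of 8 class II processing genes, 0 passed by limma and 0 stood at an unadjusted p under 0.05. Among them was Ctss, cathepsin S, which trims the invariant chain (141 ± 13.9 and 146 ± 10.7 FPKM, 0.05 ± 0.07).

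Of 10 tested regulators of MHC genes 0 passed by limma. At an unadjusted p under 0.05 there were 2, both higher on fructose, where 8.59% of all rows stood in that direction. The fold change was above 0 in 9 of the 10, against 50.3% of all rows. Irf8 had the largest difference among them (0.55 ± 0.19 SE, limma adjusted p = 0.118). Irf1, an interferon-induced activator of class I genes, had 0.19 ± 0.10 (limma adjusted p = 0.321). Ciita, the master activator of class II genes, had group means of 0.0485 and 0.0271 FPKM and was under the level tested. Nlrc5, its class I counterpart, is not analysed here. Irf9, part of the complex that binds the response element, rose from 14.3 ± 2.15 to 19.1 ± 1.65 FPKM (0.42 ± 0.09 SE, limma adjusted p = 0.0282). It was the 1 of 9 tested interferon signalling genes that rose, in 5 of 6 fructose rats above all chow rats. At an unadjusted p under 0.05 there were 4 of the 9, where 19.2% of all rows stood: Irf9 and Stat2 (log2 difference 0.24) higher on fructose, and Jak1 (-0.19) and Ifngr2 lower. The interferon gamma receptor genes Ifngr1 and Ifngr2 had -0.05 ± 0.06 and -0.22 ± 0.07 (limma adjusted p = 0.749 and 0.104). Ifng, Ifna1 and Ifnb1, which encode interferons, were listed at 0 in all 13 rats.

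**Figure D4:**
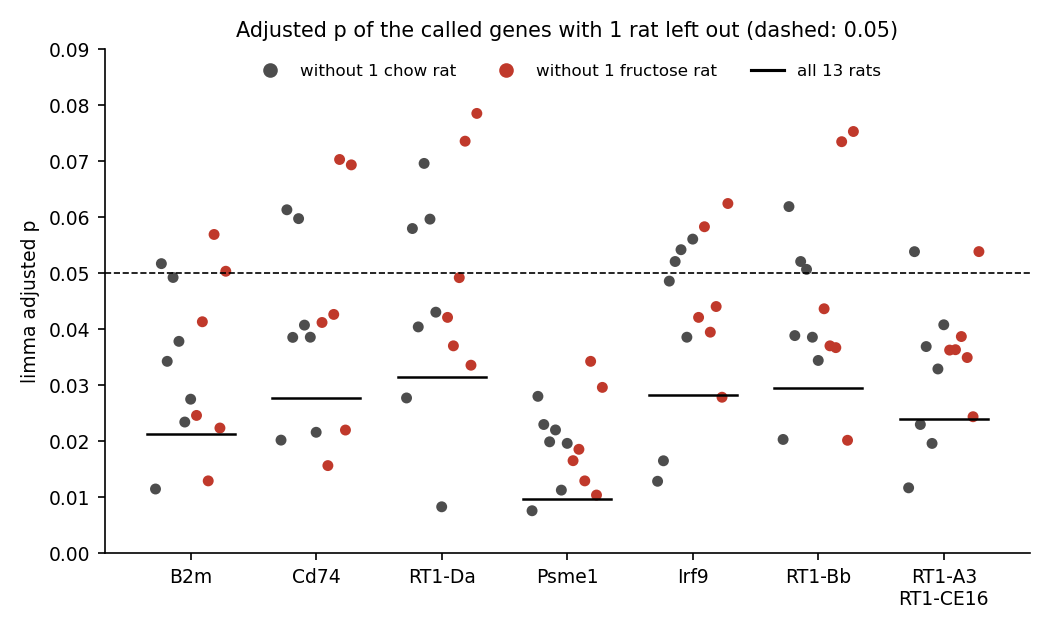
Limma adjusted p of the 3 called members and the 4 called genes of the pathway, with all rats (black line) and with 1 rat left out (points, grey for a chow and red for a fructose rat; dashed line at 0.05). Psme1 alone stays under 0.05 in all 13 fits.

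The call for Irf9 ended when any of chow replicates 4, 5 and 7 or fructose replicates 2 and 6 was left out. RT1-Bb was lost without the same 5 rats as RT1-Da, and the joined row of RT1-A3 and RT1-CE16 when either chow replicate 2 or fructose replicate 6 was dropped. Adjusted p values reached 0.0625, 0.0753 and 0.0539 in these genes (limma).

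Markers of cells that can carry class II were set beside these values. Of 13 microglial markers 0 passed by limma, with 4 at an unadjusted p under 0.05, where 19.2% of all rows stood. These 13 markers had a median log2 fold change of 0.13. Their summed FPKM ranged from 273.5 to 338.1 on chow and from 298.6 to 343.5 on fructose. Of 4 tested border macrophage markers 0 passed by limma and 2 stood at an unadjusted p under 0.05, in opposite directions. Pf4 ranged from 0.8254 to 4.367 FPKM on chow and from 2.219 to 9.009 FPKM on fructose, and F13a1 from 1.083 to 4.957 and from 0.3266 to 2.206 FPKM. The sums over 7 markers, 4.754 to 9.932 and 5.673 to 12.16 FPKM, therefore mix both. T and NK cell markers summed to 1.509 to 3.207 and 1.475 to 3.785 FPKM, mostly Cd4, and Cd3e was listed at 0 in 6 of 7 chow and 5 of 6 fructose rats. B cell markers summed to at most 0.588 FPKM, and Ms4a1 was listed at 0 in all rats but fructose replicate 6. Dendritic cell markers summed to 56.31 to 77.98 and 63.17 to 75.3 FPKM, nearly all of it Cd83 and Flt3, with limma calling 0 of 3 tested markers, and none before adjustment either.

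Markers of meninges and fibroblasts and of blood were higher on fructose as well. The meningeal sum was 22.93 to 38.74 FPKM on chow and 32.27 to 85.03 FPKM on fructose, and the blood sum 239.7 to 615.3 and 498.8 to 2219 FPKM. Chow replicate 7, the chow rat with the highest Cd74, RT1-Da and RT1-Ba, also had the highest chow sums of blood (615.3 FPKM), meninges (38.74 FPKM), microglia (338.1 FPKM) and border macrophages (9.932 FPKM). Fructose replicate 2, with the lowest Cd74 and RT1-Da on fructose, had the lowest blood sum of its group, but the second-highest border macrophage sum (10.37 FPKM). Fructose replicate 5 had the highest blood sum (2219 FPKM) with the second-lowest Cd74 of its group (5.132 FPKM). Fructose replicate 6, with the highest Cd74 (7.976 FPKM), also had a high blood sum (2137 FPKM). Whether blood sums and Cd74 ran together within fructose was not tested. Meningeal sums were lowest in fructose replicates 5 (32.27 FPKM) and 2 (36.57 FPKM), the rats lowest in Cd74, and 62.93 to 85.03 FPKM in the others. Among those others the order differed, with the highest meningeal sum in fructose replicate 1 and the highest Cd74 in fructose replicate 6. Astrocyte markers, of which Gfap and Aqp4 rose among 7 tested, summed to 2056 to 2185 FPKM on chow and to 2236 to 2447 FPKM on fructose, with no overlap, as for B2m. Midbrain dopamine markers summed to 83.31 to 114.4 and 210.5 to 585.1 FPKM, also without overlap. Of 9 endothelial markers 0 passed by limma, with 4 at an unadjusted p under 0.05, where 19.2% of all rows stood. By the exact permutation test no gene at all passed after adjustment, and none could, since the lowest p that the splits allow did not pass. The part of these cells in the values of the class I and class II genes was not tested.

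The genes whose values ran most like those of Cd74 and of B2m across the 13 rats, after each diet's mean was taken off, were listed as a description. For Cd74 these were Pcolce (Pearson r = 0.893), Aebp1 (0.879), Fat4 (0.855), Sned1 (0.854) and Col3a1 (0.853), of which Pcolce and Col3a1 belong to collagen formation. Col3a1 is also one of the meninges and fibroblast markers used above, though not itself called (limma adjusted p = 0.145). Among the members RT1-Da was most like Cd74 (r = 0.767, rank 16 of all tested rows), then RT1-Ba (0.480), while Tapbp ran the other way (-0.55). For B2m they included Scly, Mina, Csrp2 and Ccdc102a, with r between 0.820 and 0.858. No member was close to B2m, the highest being RT1-Ba at 0.379. These genes are the top of a ranking of 11837 rows over 13 rats. How high r would stand at the top by chance was not tested.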

How the data were processed

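Values are FPKM as the authors deposited them, in a single table whose columns were matched to rats by name. Build rn5, STAR 2.3.0e, Cufflinks 2.1.1 and Cuffdiff are named in the labels, per the submitters' processing notes, without their settings, strand handling or scaling. Promoter sequences are RefSeq's (GRCr8), matched by symbol, and the motif letters were shortened to 9 at most after a first search with longer ones. Values were analysed as log2(FPKM + 0.5), and rows with a mean of at least 0.5 FPKM (11837) were tested with limma 3.58.1 in R 4.3.3 (trended empirical Bayes, two-sided p, Benjamini-Hochberg adjustment over all these rows). The procedure was tested on simulated data. Single values had exact permutation tests over the 1716 splits. The members and gene lists were chosen with earlier results of these data known. Named genes are the members, Psmb5, Psmb6, Psmb7, called genes of the pathway lists and RT1 rows, 7 fixed regulators and processing genes, and the 5 genes most like B2m and Cd74. Of these, 2 genes are not reported here. Others were chosen after their values were seen, namely Psme2, Psme3, RT1-A1, RT1-A2, RT1-Db1, RT1-DMa, RT1-DMb, Jak1 and other interferon genes. So were Irf8 and Stat2, which are also in the plot of fold changes. Depth is unknown, so precision rests on the spread between rats.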

Additional observations from a re-analysis of the deposited data

How the results depend on the processing

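The count of all changed genes was 466, and 308 with no filter on low values, 1019 with array weights and 915 at an adjusted p under 0.1. With 1 rat left out it was 83 to 857. The count of changed members was 3 in all rats, 2 to 4 under the other settings and 0 to 4 with 1 rat left out. The 4 changed pathway rows came to 7 at an adjusted p under 0.1 and to 1 to 7 with 1 rat left out. The cause was not tested, beyond the fewer rats. By the exact permutation test, adjusted over all genes, B2m stood at p = 0.0663, Cd74 at 0.104 and RT1-Da at 0.108. B2m stood at the lowest value that this test could give, so no gene could pass it. The log2 ratio of Cd74 to B2m differed by 0.468 to 0.687 with 1 rat left out. No direction of a member, ratio or class level changed under pseudocounts of 0.1 and 1, quantile normalization, median-ratio scaling or any rat left out. No scaling moved the median over all rows by more than 0.006. No paired analysis was possible because replicate numbers were given in accession order. Unknown depth limits the low rows, RT1-Da, RT1-Ba and Tap2.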

Other observations

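Several RT1 rows varied more between rats than between diets. RT1-CE10 stood at 2.614 FPKM in chow replicate 3, 3.851 in fructose replicate 4 and 4.459 in fructose replicate 5, against 9.172 to 22.33 FPKM in the other rats, and its diet means were 12.5 and 12.8 FPKM. RT1-CE13 was listed at 0 in chow replicate 3 and stood at 0.518 and 0.5438 FPKM in fructose replicates 4 and 5, against 1.202 to 8.47 FPKM in the others. RT1-Db1 was lowest in chow replicates 3 and 6 (0.8235 and 0.9296 FPKM) and fructose replicates 5 and 4 (1.107 and 1.765 FPKM). RT1-T24-3 was lowest in chow replicates 6 and 3 (0.5668 and 0.8041 FPKM) and reached 9.218 FPKM in fructose replicate 1. Over the 17 tested RT1 rows other than members, chow replicate 6 was among the 4 lowest rats in 12 rows and chow replicate 3 in 10, whereas fructose replicate 6 was so in 0. These rows were singled out after their values were seen, and many are close copies that can share reads.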
